A study of Mus musculus with 27 samples.

Results

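The comparison described here set 3 RNA libraries of ND1-transduced mouse microglia at day 7 against 3 libraries of control microglia at day 7, over all genes. The members are the 6 libraries that the labels place in these 2 groups, out of 27 samples in the series. All were C57BL/6 wild-type cells, grown as primary microglia from the cortex of pups at postnatal day 1. The ND1 cells had received a lentivirus for ND1 and a lentivirus for M2rtTA, a doxycycline-dependent transcriptional activator, in the presence of polybrene. They were then kept in a neuronal medium (Neurobasal with B27, BDNF, GDNF and NT3), and doxycycline was added once. The labels call the other group control and name neither a control virus nor its medium, so effects of ND1, of the viruses, of doxycycline and of the medium cannot be told apart. They do not spell out ND1, do not say which promoter drives it, and do not say whether the replicates are separate cultures. The p-values therefore measure the spread between libraries within the groups of the fit, and this spread may be technical. Libraries of ND1 and control cells at day 2 and of cultured cortical neurons, 3 each, entered the same statistical fit and are used for side-by-side values. Of 2 bisulfite libraries, 1 was ND1 and 1 control, with no day in their labels.

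Microglia are the resident macrophages of the brain. They arise outside the neural lineage, depend on signalling through the receptor Csf1r, and are run by myeloid transcription factors such as Spi1 and Irf8. They engulf debris, digest it in lysosomes, and carry receptors for microbes, antibodies and complement. Neurod1 is a proneural basic helix-loop-helix factor that binds E-box sequences and can start neuronal programmes in non-neuronal cells. Neurons differ from macrophages in their genes for synapses, channels and axons, and often also in which paralogue of a shared protein family they use.

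FPKM (fragments per kilobase of transcript, scaled by the mapped fragments of a library) summed to 461085, 447561 and 451498 in the ND1 libraries, against 739846, 704840 and 700518 in the control libraries. Genes at 1 FPKM or more numbered 11981 to 12092 in ND1 libraries and 10914 to 11036 in control libraries. Over the 13602 genes tested, correlations on the log2(FPKM + 1) scale were 0.982 to 0.984 among ND1 libraries and 0.979 to 0.986 among control libraries, and 0.579 to 0.608 between the groups. Read counts are not in the tables, so depth per value is unknown. A few abundant genes are listed at 0 in some libraries, and for these each library's value is given in place of a mean.

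The labelled cell types were set against their defining markers. Tubb3, Map2, Rbfox3, Snap25, Syt1 and Dcx, the neuron markers, averaged 1987, 191, 21.1, 74.6, 61.4 and 214 FPKM in ND1 libraries, against 5.17, 1.83, 0.336, 1.18, 0.232 and 0.529 FPKM in control libraries. Among the microglia markers, Csf1r, Aif1, C1qa, Itgam, Cx3cr1 and P2ry12 averaged 15.9, 21.1, 169, 2.93, 3.08 and 1.33 FPKM in ND1 libraries, against 362, 565, 4904, 20.6, 12.5 and 10.8 FPKM in control libraries. Tmem119, a marker of microglia in the intact brain, was low in both groups, at 0.138, 0.175 and 0.232 FPKM in ND1 libraries and 1.14, 0.959 and 1.14 FPKM in control libraries. The control libraries held little Tmem119 beside their other microglia markers.

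Neurod1, for which ND1 is a common short name, was looked at first as a check of the labels. It stood at 36.7, 32.6 and 32.5 FPKM in the ND1 libraries, against 1.33, 1.19 and 2.16 FPKM in the control libraries, and at 6.43, 6.79 and 6.38 FPKM in neurons. The groups did not overlap, and the log2 change of 3.79 (SE 0.10) had a limma adjusted p of 9.62e-14. Viral and endogenous transcripts of the gene cannot be told apart in these values.

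A gene was called where limma's Benjamini-Hochberg adjusted p was under 0.05 and the log2 change at least 1 in size. Of the 13602 genes tested, 3497 (25.7%) were called higher in ND1 cells and 3332 (24.5%) lower, 50.2% in either direction. After scaling every library to the same FPKM sum the calls were 5433 higher and 2440 lower, since the ND1 sums are smaller. The share of calls that were higher was then 69.0%, in place of 51.2%, and the median of all genes moved by 0.584 on the log2 scale from 0.039. Quantile normalization gave 3298 higher and 3566 lower. The values of the 3 ND1 libraries lay entirely above or entirely below those of the 3 control libraries for 12366 genes (90.9%).

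Large rises outnumbered large falls. Here a rise or a fall is a difference of ND1 from control cells at day 7, not a change over time. A log2 change of at least 4 (16-fold) was reached by 445 genes called higher and 225 called lower, a change of at least 5 (32-fold) by 163 and 15, and a change of at least 6 (64-fold) by 52 and 5; of those 5, all but Cd5l were microRNA genes, chosen after their values were seen. Most falls left a measurable level. Of the genes called lower, 2655 still had an ND1 mean of 1 FPKM or more, whereas 1790 of those called higher had a control mean of 1 FPKM or more. Genes under 1 FPKM in all 3 control libraries and at 1 FPKM or more in all 3 ND1 libraries numbered 1803, and the reverse pattern held for 781. In bulk RNA, fewer cells of a type and less RNA per cell cannot be told apart, so a level that remains in ND1 libraries may belong to a few cells or to all.

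The shift covered much of the transcript pool. Genes called higher held 34.4, 35.05 and 34.6% of the FPKM sum in the ND1 libraries, against 3.66, 3.61 and 3.66% in the control libraries. Genes called lower held 17.0, 15.9 and 16.4% in the ND1 libraries, against 61.5, 62.2 and 61.9% in the control libraries. The pool was also less concentrated. The 10 most abundant genes of a library took 7.02 to 7.49% of the sum in ND1 cells and 17.1 to 17.4% in control cells, and the 100 most abundant took 26.6 to 27.5% and 42.8 to 43.3%.

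**Figure D1:**
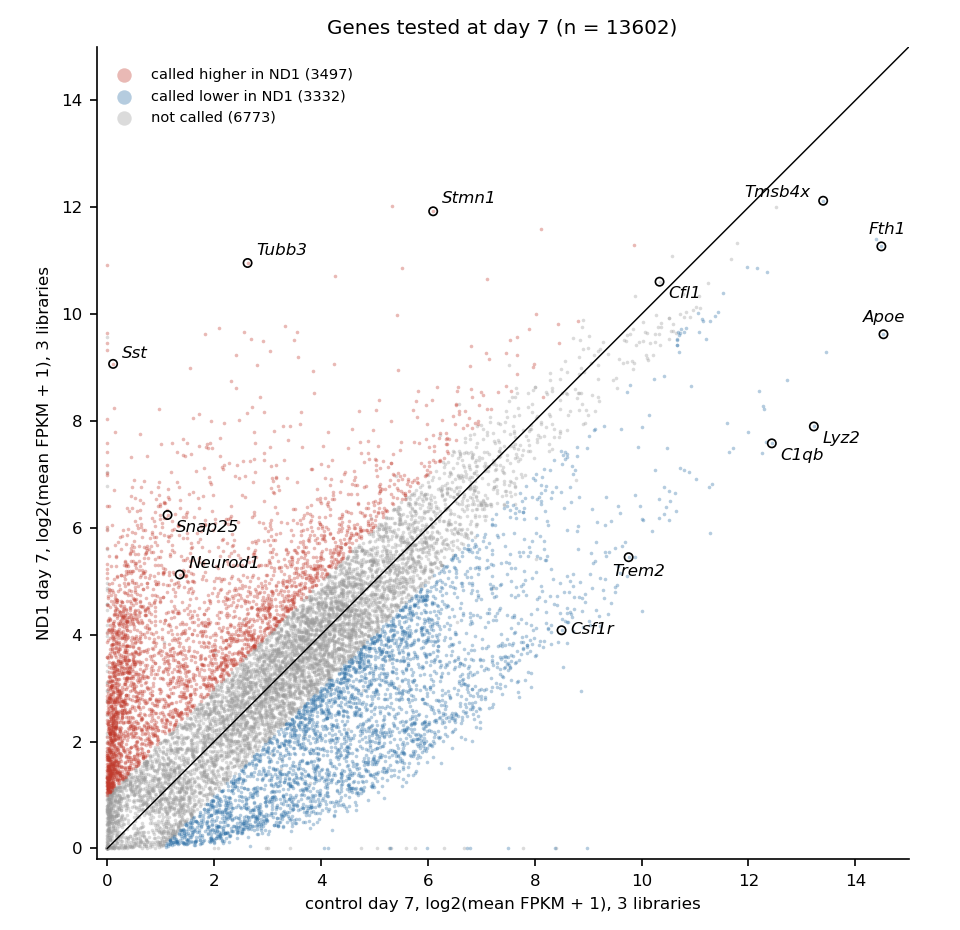
Mean level of each of the 13602 tested genes, as log2(mean FPKM + 1), in ND1 day 7 (vertical) and control day 7 libraries (horizontal), 3 libraries each, coloured by call; the line marks equal levels and 13 genes are named. Neuronal genes such as Tubb3 lie along the left side, while Apoe, Lyz2 and C1qb lie far right and below the line.

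The identity of the most abundant genes differed. In ND1 cells the 10 highest were Tmsb4x, Tuba1a, Eef1a1, Stmn1, Tmsb10, Ftl1, Rpl38, Actg1, Fth1 and Ppia. In control cells they were Apoe, Fth1, Ftl1, Ctsd, Tmsb4x, Lyz2, B2m, Eef1a1, C1qb and Rps29. Tuba1a, an alpha-tubulin of growing neurons, gave 4124, 4189 and 4135 FPKM in the ND1 libraries, against 36.6, 37.4 and 44.2 FPKM in the control libraries. Stmn1, the microtubule regulator stathmin, gave 3874, 3852 and 3937 FPKM in the ND1 libraries, against 66.4, 64.2 and 72.0 FPKM in the control libraries. Both had called rises, of 6.69 (SE 0.09) and 5.83 (SE 0.08) on the log2 scale. Fth1, the ferritin heavy chain, gave 2796, 2184 and 2415 FPKM in the ND1 libraries, against 23848, 23058 and 22024 FPKM in the control libraries, a log2 change of -3.23. Ctsd, the lysosomal protease cathepsin D, gave 726, 542 and 619 FPKM in the ND1 libraries, against 11355, 11493 and 10952 FPKM in the control libraries, and kept 5.58% of its control mean. Tmsb4x, an actin-sequestering thymosin, was abundant in both groups, at 4386, 4519 and 4465 FPKM in the ND1 libraries, against 12150.0, 9783 and 10460.1 FPKM in the control libraries. Its log2 change was -1.27 (SE 0.13), but 1.46 after quantile normalization, so its direction depends on the scaling. Eef1a1, a translation elongation factor, changed by -0.51 and was not called, yet had 1.19 after quantile normalization.

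Small RNA genes and symbols that start with Gm or end in Rik were set aside in naming the largest changes, and several microRNA and small nucleolar RNA genes had changes of like or larger size. Among the other genes of at least 10 FPKM in the higher group, the 15 largest rises were those of Sst, Tubb3, Mpped1, Morf4l2, Crmp1, Nrep, Neurod6, Mapt, Actr3, Dpysl5, Dcx, Dpysl3, Syt4, Gap43 and Stmn3. Sst, which encodes the interneuron peptide somatostatin, gave 552, 518 and 538 FPKM in the ND1 libraries, against 0.157, 0 and 0.0762 FPKM in the control libraries. Tubb3, the neuronal class III beta-tubulin, gave 2031, 1958 and 1974 FPKM in the ND1 libraries, against 4.77, 4.27 and 6.48 FPKM in the control libraries. Every ND1 library stood far above every control library in both genes. Mpped1, a metallophosphoesterase gene, gave 302, 301 and 303 FPKM in the ND1 libraries, against 0.0917, 0.0841 and 0.0888 FPKM in the control libraries (log2 change 8.12, SE 0.06, limma adjusted p = 1.84e-17). Nrep, first described in regenerating neurons, gave 812, 892 and 859 FPKM in the ND1 libraries, against 2.55, 2.97 and 4.29 FPKM in the control libraries (log2 change 7.67, SE 0.11). Morf4l2 and Actr3 need another reading. Both are broadly used genes, of a chromatin complex and of the actin-nucleating ARP2/3 complex, and both were listed at 0 in all 3 control libraries. The ND1 libraries list Morf4l2 at 243, 273 and 265 FPKM and Actr3 at 166, 170.4 and 171 FPKM, and Actr3 was also at 0, 0 and 407 FPKM in ND1 libraries of day 2. Zeros of this kind can be failed estimates, so no change is given for either.

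By the same rule the 15 largest falls were those of Cd5l, Lipa, Rps27, Wfdc17, Lyz2, Clec4a3, Trf, Lyz1, Apoe, Fcgr1, Clec4a1, C1qb, C1qa, Ccl4 and Ifi27l2a. Cd5l, a macrophage-secreted scavenger protein, gave 2.31, 1.39 and 1.78 FPKM in the ND1 libraries, against 179.5, 201 and 169 FPKM in the control libraries, so that the ND1 mean was 0.997% of the control mean. Wfdc17, a secreted protease-inhibitor-like protein of macrophages, gave 21.8, 18.8 and 22.1 FPKM in the ND1 libraries, against 1187, 967 and 934 FPKM in the control libraries (log2 change -5.55, SE 0.11). Trf, the iron carrier transferrin, gave 19.9, 13.9 and 16.9 FPKM in the ND1 libraries, against 624, 586 and 588 FPKM in the control libraries (log2 change -5.08, SE 0.10). Ifi27l2a, an interferon-induced gene, gave 27.7, 21.9 and 19.9 FPKM in the ND1 libraries, against 734, 669.5 and 672 FPKM in the control libraries (log2 change -4.85, SE 0.14). For these 4 genes every ND1 value lay far under the lowest control value. At day 2 the 4 averaged 2.12, 142, 291 and 606 FPKM in ND1 libraries, against 3.87, 200, 396 and 777 FPKM in control libraries. The control levels of Cd5l, Wfdc17 and Trf were thus higher at day 7 than at day 2, and that of Ifi27l2a was lower. Cd5l was already near its day 7 mean of 1.83 FPKM in ND1 cells at day 2. Lipa, the lysosomal acid lipase, gave 45.2, 35.7 and 0 FPKM in the ND1 libraries, against 766, 704 and 714 FPKM in the control libraries. Its change was -5.93 (SE 1.92). Without ND1 replicate 3 it was -4.15, still a large fall, with a limma adjusted p of 0.0573, and its place among the 15 depends on that 0. The shared spread also holds the control libraries of day 2, where Lipa was listed at 477, 0 and 472 FPKM. Rps27, a ribosomal protein, was uneven within control cells, at 10.99, 4.99 and 4.01 FPKM in the ND1 libraries, against 971, 280.2 and 144 FPKM in the control libraries, and stood at 8.85, 5.84 and 9.53 FPKM in the control libraries of day 2. Its SE was 0.55, and the tables do not show how reads were assigned among its copies.

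Promoters of the first 2 genes on each side are shown because these genes came first under the naming rule above, Lipa with the 0 counted, and because Neurod1 belongs to a family that binds E-boxes (CANNTG). Each covers 250 bases before to 50 after the RefSeq start on GRCm38.p6, and capitals mark every CANNTG match. Sst (chr16:23890795-23891094, minus strand) held 1 match and 13 CpG. Tubb3 (chr8:123411303-123411602, plus strand) held 0 matches and 26 CpG. Cd5l (chr3:87357631-87357930, plus strand) held 2 matches and 0 CpG. Lipa (chr19:34527425-34527724, minus strand) held 0 matches and 7 CpG.
Sst: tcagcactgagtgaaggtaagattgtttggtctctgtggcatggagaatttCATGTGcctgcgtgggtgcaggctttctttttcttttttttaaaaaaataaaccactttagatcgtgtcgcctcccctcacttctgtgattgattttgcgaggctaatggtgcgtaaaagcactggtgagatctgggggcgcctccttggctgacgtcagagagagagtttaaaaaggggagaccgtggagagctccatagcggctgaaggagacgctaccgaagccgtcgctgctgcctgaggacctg
Tubb3: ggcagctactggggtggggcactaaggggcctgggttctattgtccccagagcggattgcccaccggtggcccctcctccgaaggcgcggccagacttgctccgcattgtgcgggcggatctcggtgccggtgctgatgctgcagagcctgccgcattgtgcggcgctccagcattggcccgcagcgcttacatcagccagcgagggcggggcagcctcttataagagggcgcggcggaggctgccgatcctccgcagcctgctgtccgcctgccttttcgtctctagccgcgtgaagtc
Cd5l: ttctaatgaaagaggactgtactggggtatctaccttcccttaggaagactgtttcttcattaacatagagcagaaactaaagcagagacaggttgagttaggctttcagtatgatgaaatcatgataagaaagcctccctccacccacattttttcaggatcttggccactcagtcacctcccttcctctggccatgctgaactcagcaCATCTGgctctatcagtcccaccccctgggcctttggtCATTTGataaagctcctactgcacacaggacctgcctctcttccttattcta
Lipa: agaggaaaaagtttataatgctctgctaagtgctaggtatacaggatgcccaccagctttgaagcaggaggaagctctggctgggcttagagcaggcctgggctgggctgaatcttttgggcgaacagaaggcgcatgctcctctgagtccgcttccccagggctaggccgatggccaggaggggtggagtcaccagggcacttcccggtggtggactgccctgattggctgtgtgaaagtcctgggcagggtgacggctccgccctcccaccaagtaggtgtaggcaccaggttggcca
The first of the 2 matches in Cd5l reads as CAGATG on the other strand. These sequences describe the windows and say nothing of binding.

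Genes were grouped into 41 lists by their roles. A list is described by its counts and by the median log2 change of its tested members, beside 0.039 for all 13602 genes, and the plot of all lists shows every member. List counts stand beside 25.7% of all tested genes called higher and 24.5% called lower. The largest changes named per list were picked among called members whose groups did not overlap. Statements that their libraries were apart therefore follow from that choice, and 90.9% of all tested genes had no overlap. Of the axon and microtubule list, which builds and stabilises neurites, 31 of 33 tested members were called higher and 1 lower, with a median of 5.78. Crmp1, a mediator of growth cone collapse, gave 793, 779 and 787 FPKM in the ND1 libraries, against 2.29, 2.57 and 2.82 FPKM in the control libraries. Mapt, the microtubule-binding protein tau, gave 504, 503 and 509 FPKM in the ND1 libraries, against 1.24, 1.87 and 2.66 FPKM in the control libraries. Dpysl5, of the same family as Crmp1, gave 298, 297 and 298 FPKM in the ND1 libraries, against 0.813, 1.03 and 0.993 FPKM in the control libraries. The groups were far apart in each of the 3 genes. The called rises of these genes were 7.79, 7.46 and 7.26 on the log2 scale, with SEs of 0.08, 0.14 and 0.08, and limma's adjusted p was at most 1.56e-07 among the called members of the list. Nefh, the heavy neurofilament, did not pass, at 0.671, 0.693 and 0.695 FPKM in ND1 libraries and 0, 0.0170 and 0 FPKM in control libraries. Tppp3, a microtubule-bundling protein, was called lower, at 3.13, 3.09 and 3.33 FPKM in ND1 libraries against 13.5, 13.6 and 13.3 FPKM in control libraries. Summed over the list, the level was 19328 to 19402 FPKM in ND1 libraries and 306 to 339.6 FPKM in control libraries.

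**Figure D2:**
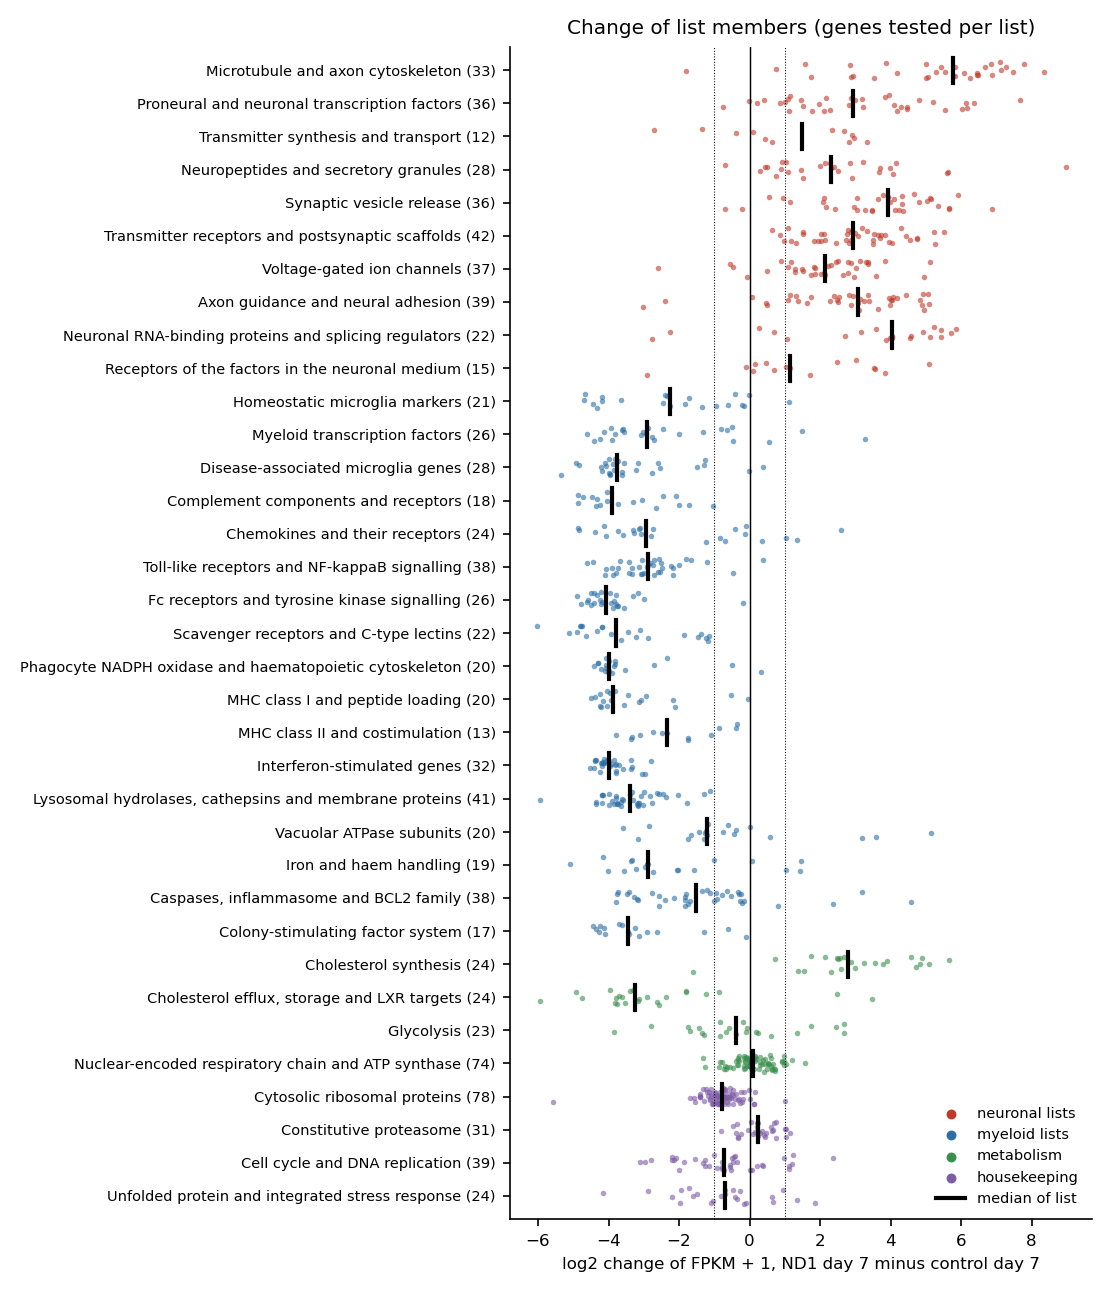
Log2 change of FPKM + 1 (ND1 day 7 minus control day 7, horizontal) of each tested member of 35 gene lists (rows, with the number tested); points are genes, bars are list medians, dotted lines mark a log2 change of -1 and 1. Medians of the neuronal lists lie between 1.13 and 5.78, those of the myeloid lists between -4.08 and -1.19, and those of respiratory chain and proteasome genes at 0.09 and 0.25.

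Transcription factors of the neuronal lineage came next in the order of roles. Of 36 tested, 30 were called higher and 0 lower, with a median of 2.93. Neurod6, a basic helix-loop-helix factor of cortical excitatory neurons, gave 215, 228 and 224 FPKM in the ND1 libraries, against 0.0478, 0.0988 and 0.154 FPKM in the control libraries. Neurod2, its relative, gave 83.7, 83.9 and 84.0 FPKM in the ND1 libraries, against 0.0106, 0.0219 and 0.0513 FPKM in the control libraries. Bcl11a, a zinc finger factor, gave 96.7, 95.9 and 95.6 FPKM in the ND1 libraries, against 0.292, 0.336 and 0.454 FPKM in the control libraries. ND1 and control values were separated by a wide gap in all 3. The rise of Bcl11a was 6.16 (SE 0.08, limma adjusted p = 2.34e-16). The other 6 factors of the list were not called, among them Zeb1, which gave 2.75, 2.67 and 2.88 FPKM in the ND1 libraries, against 2.41, 2.77 and 3.21 FPKM in the control libraries, with overlapping groups. The other 5 were Emx2, Tshz1, Meis1, Pbx3 and St18, whose log2 changes were 0.995, 0.86, 0.41, 0.20 and -0.75. Quantile normalization left 26 factors called higher and 1 lower.

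Genes of inhibitory and of excitatory transmission were both among those called higher. Of 12 tested genes for making or loading a transmitter, 6 were called higher and 2 lower, with a median of 1.49. The GABA-synthesising enzyme gene Gad1 gave 26.4, 29.1 and 28.4 FPKM in the ND1 libraries, against 1.83, 1.76 and 2.03 FPKM in the control libraries. Slc32a1, the vesicular GABA transporter, gave 9.58, 9.66 and 8.92 FPKM in the ND1 libraries, against 0.418, 0.296 and 0.312 FPKM in the control libraries. For glutamate, the vesicular transporter Slc17a6 gave 6.23, 7.18 and 6.195 FPKM in the ND1 libraries, against 0.00755, 0.00780 and 0 FPKM in the control libraries. All 3 genes were higher in every ND1 library, with log2 changes of 3.33, 2.95 and 2.90. The 2 called lower were Gch1, which starts the synthesis of tetrahydrobiopterin, a cofactor that macrophages also use, and Slc18a1, a monoamine transporter, with log2 changes of -2.72 and -1.35. Listed at 0 in all 3 control libraries were Slc6a3, Tph1, Tph2 and Chat. As a share of cortical neurons, the list's genes at 1 FPKM or more in neurons had a median of 20.7% in ND1 cells.

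Peptide genes and secretory granule proteins were called higher in 21 of 28 cases and lower in 0, with a median of 2.30. Beside Sst, Scg5, a chaperone of prohormone processing, gave 176, 180.2 and 179 FPKM in the ND1 libraries, against 3.07, 1.82 and 3.15 FPKM in the control libraries. Cck, the peptide cholecystokinin, gave 67.9, 64.6 and 64.9 FPKM in the ND1 libraries, against 0.128, 0.0659 and 1.24 FPKM in the control libraries, and Chga, the granule protein chromogranin A, gave 35.9, 34.3 and 35.3 FPKM in the ND1 libraries, against 0.944, 0.689 and 1.54 FPKM in the control libraries. All 3 were higher in each ND1 library, by 5.63, 5.59 and 4.16 on the log2 scale. Npy, neuropeptide Y, was high in both groups and not called, at 68.0, 62.2 and 69.5 FPKM in the ND1 libraries, against 103.0, 138 and 88.3 FPKM in the control libraries. This list, like that of transmitter genes, stood far below neurons, at a median of 25.3% of the neuron level. The other neuronal lists were nearer to or above neurons. Their medians ran from 56.2% for synaptic vesicle release to 144% for neuronal transcription factors, with 97.6% for the axon and microtubule list.

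Of 36 genes of synaptic vesicle release, 32 were called higher and 0 lower, with a median of 3.91. Syt4, a vesicle synaptotagmin, gave 152, 169 and 158 FPKM in the ND1 libraries, against 0.261, 0.469 and 0.350 FPKM in the control libraries. Syt1, the calcium sensor of fast release, gave 59.9, 63.6 and 60.8 FPKM in the ND1 libraries, against 0.151, 0.205 and 0.339 FPKM in the control libraries. Cplx1, a complexin that clamps the fusion machinery, gave 93.9, 91.2 and 90.8 FPKM in the ND1 libraries, against 1.08, 0.549 and 0.999 FPKM in the control libraries. No control library came near an ND1 library in these genes. Syt5 rose by 5.91 (SE 0.09). The 4 members that did not pass were Syt13, Sv2c, Vamp1 and Synj1, with log2 changes of 0.94, 0.56, -0.22 and -0.70. Synj1, a lipid phosphatase of vesicle recycling, gave 16.2, 17.3 and 16.6 FPKM in ND1 and 26.8, 26.7 and 29.6 FPKM in control libraries.

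On the receiving side of the synapse, 39 of 42 receptors and scaffolds were called higher and 0 lower, with a median of 2.94. Dlg2, a scaffold of the postsynaptic density, gave 47.5, 52.0 and 50.5 FPKM in the ND1 libraries, against 0.0813, 0.108 and 0.131 FPKM in the control libraries. Gabra2, a GABA-A receptor subunit, gave 49.3, 54.7 and 53.9 FPKM in the ND1 libraries, against 0.369, 0.249 and 0.646 FPKM in the control libraries. Camk2b, a calcium-dependent kinase, gave 164, 161 and 163 FPKM in the ND1 libraries, against 3.38, 3.26 and 3.33 FPKM in the control libraries. The groups did not overlap, and the log2 changes were 5.53, 5.25 and 5.24. Gabbr1, a GABA-B receptor subunit, rose by 4.75 (SE 0.06). Grin3a, Grin2d and Grm8 did not pass, with ND1 means of 1.91, 0.994 and 0.609 FPKM against control means of 0.469, 0.0847 and 0.0364 FPKM.

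Voltage-gated channels were called higher in 31 of 37 cases and lower in 1, with a median of 2.14. Cacnb3, a calcium channel beta subunit, gave 72.9, 70.8 and 70.8 FPKM in the ND1 libraries, against 1.13, 1.05 and 1.12 FPKM in the control libraries. Cacna2d1, a calcium channel accessory subunit, gave 14.9, 16.5 and 15.7 FPKM in the ND1 libraries, against 0.164, 0.156 and 0.142 FPKM in the control libraries. Both were higher in all ND1 libraries. Scn3b, a sodium channel beta subunit, rose by 3.58. Not passing were Cacna2d2, Kcna1, Cacna1d, Kcnab2 and Cacna1a, whose log2 changes lay between -0.56 and 0.90. Pore-forming sodium channel genes were low beside the cytoskeletal genes, with Scn2a1 at 10.1 FPKM in ND1 cells and 0.0961 FPKM in control cells (chosen after its value was seen).

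Guidance and adhesion genes rose in 34 of 39 cases, with a median of 3.07. Ncam1, the neural cell adhesion molecule, gave 99.4, 102.3 and 101.6 FPKM in the ND1 libraries, against 1.69, 2.12 and 2.29 FPKM in the control libraries. L1cam, an adhesion molecule of growing axons, gave 50.3, 48.5 and 49.1 FPKM in the ND1 libraries, against 0.348, 0.625 and 0.527 FPKM in the control libraries. Efnb2 and Efnb3, ligands of Eph receptors, rose by 4.96 and 4.92. In each of these genes the lowest ND1 library exceeded the highest control library. The 2 members called lower were the semaphorin receptors Nrp1 and Nrp2. Nrp1 gave 14.4, 13.7 and 13.4 FPKM in the ND1 libraries, against 74.1, 77.1 and 81.1 FPKM in the control libraries, and Nrp2 gave 7.66, 6.52 and 7.03 FPKM in the ND1 libraries, against 58.6, 69.8 and 65.5 FPKM in the control libraries, log2 changes of -2.40 and -3.02. Ntn1, Unc5b and Plxna1 did not pass, at 0.49, 0.46 and 0.07.

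Neuronal RNA-binding proteins, which set splicing and transcript stability in neurons, were called higher in 18 of 22 cases and lower in 2, with a median of 4.04. Elavl3, a Hu protein, gave 132, 129.6 and 129.9 FPKM in the ND1 libraries, against 1.11, 1.32 and 1.42 FPKM in the control libraries. Celf3 gave 82.2, 76.5 and 79.6 FPKM in the ND1 libraries, against 0.305, 0.4998 and 0.793 FPKM in the control libraries, and Rbfox2, a splicing factor, gave 105, 108 and 108 FPKM in the ND1 libraries, against 1.31, 1.38 and 1.88 FPKM in the control libraries. Khdrbs3 rose by 5.42 (SE 0.09). Among the called members of the list, limma's adjusted p was at most 1.44e-08. Those called lower were Mbnl2, a muscleblind splicing factor, at 3.64 against 30.4 FPKM on average in ND1 and control cells, and Cpeb1, a regulator of polyadenylation, at 1.24 against 9.75 FPKM. Nova1 and Msi2 did not pass, at 0.71 and 0.27.

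Receptors and adaptors for the factors of the neuronal medium were called higher in 9 of 15 cases and lower in 1. Ntrk3, the receptor of NT3, gave 12.3, 12.9 and 13.2 FPKM in the ND1 libraries, against 0.179, 0.109 and 0.271 FPKM in the control libraries, and the gene of its ligand, Ntf3, gave 11.2, 10.1 and 11.4 FPKM in the ND1 libraries, against 0, 0.0288 and 0 FPKM in the control libraries. Ntrk2, the BDNF receptor, gave 32.4, 33.7 and 32.6 FPKM in the ND1 libraries, against 5.14, 5.01 and 5.25 FPKM in the control libraries (chosen after its value was seen). All ND1 values lay above the control values in these genes. Shc3, a neuronal adaptor of Trk receptors, rose by 3.84, while Shc1, its broad relative, was called lower at 3.68, 3.19 and 3.30 FPKM in the ND1 libraries, against 31.7, 31.0 and 32.6 FPKM in the control libraries. Gfra1, a GDNF receptor, did not pass, at 0.988, 0.911 and 0.910 FPKM in ND1 and 0.515, 0.783 and 0.899 FPKM in control libraries. Frs2, Ngfr and Sort1 did not pass either, with log2 changes of 0.69, 0.45 and -0.11.

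Many protein families have a member that neurons use and one that most other cells or macrophages use, and 38 such pairs were set side by side. FPKM is scaled to transcript length, so the 2 genes of a pair can be set side by side. How reads shared by close paralogues were assigned is not shown, so shares of such pairs are uncertain. The neuronal member was called higher in 35 pairs and lower in 0. The broad member was called lower in 24 and higher in 3. Over all tested genes 25.7% were called higher and 24.5% lower, and the pairs were chosen with earlier results of these data known. Arpc1a, Atp6v0a1 and Pfkp were the 3 neuronal members not called. In 22 pairs the neuronal member was called higher and the broad one lower, a count of 19 after scaling to equal sums and of 23 after quantile normalization. Lmnb1 and Lmna are counted among the 22, although the cortical neurons held more Lmna than Lmnb1. The share of the pair held by the neuronal member was higher in every ND1 library than in every control library for 37 pairs, and crossed 50% in 26. For single genes, the groups did not overlap in 90.9% of all genes tested.

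**Figure D3:**
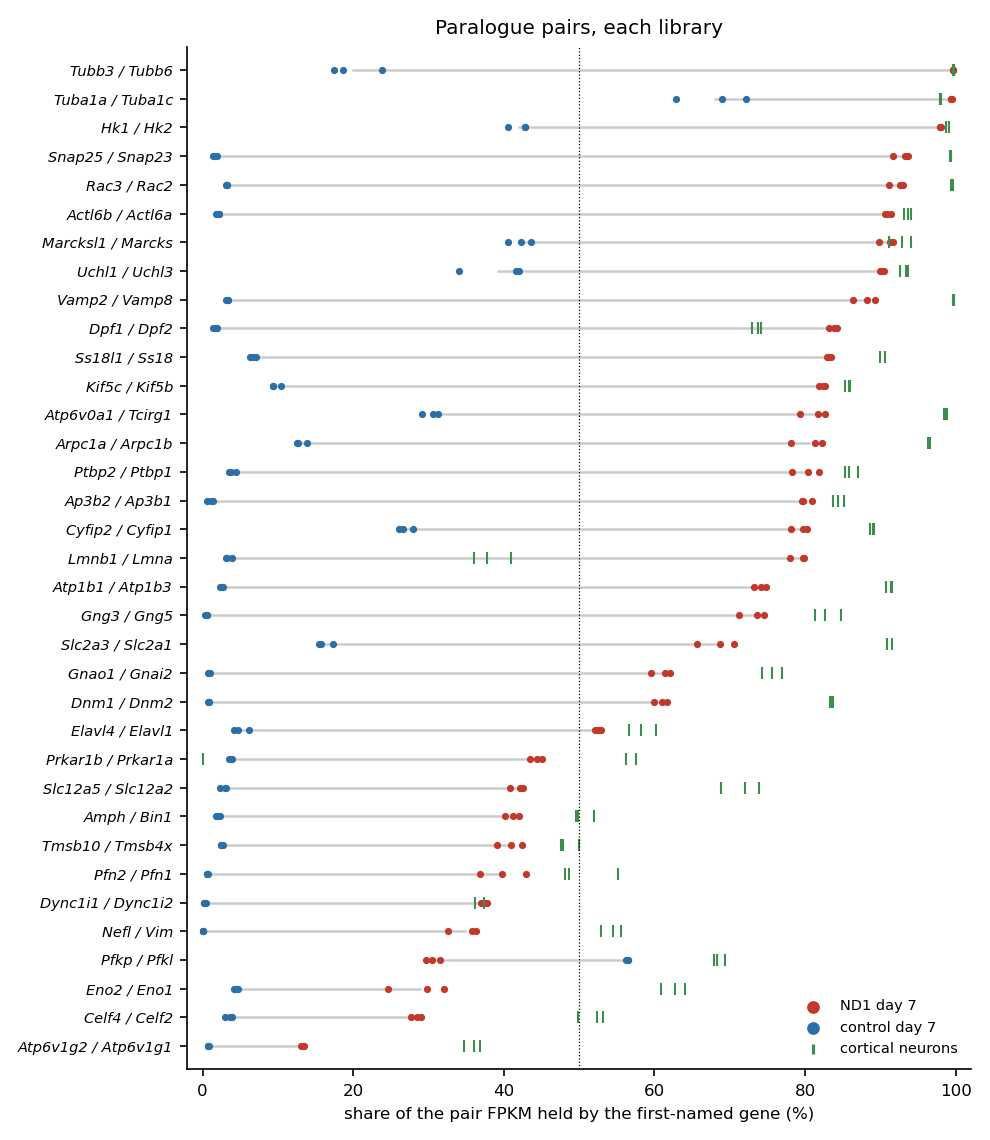
Share of the summed FPKM of 35 paralogue pairs held by the first-named, neuronal member (horizontal, %), in each ND1 day 7, control day 7 and cortical neuron library; grey lines join the ND1 and control means. ND1 points lie right of control points in every pair shown but Pfkp and Pfkl; 1 neuron point for Prkar1b stands at 0.

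Regulators of splicing and chromatin were among the pairs that turned. Ptbp2, the neuronal polypyrimidine tract-binding protein, held 78.3, 81.9 and 80.4% of its pair with Ptbp1 in ND1 libraries, against 3.84, 3.46 and 4.43% in control libraries. Ptbp2 gave 58.2, 65.0 and 61.3 FPKM in the ND1 libraries, against 2.86, 2.73 and 3.29 FPKM in the control libraries. Ptbp1 gave 16.1, 14.4 and 14.9 FPKM in the ND1 libraries, against 71.6, 76.2 and 71.1 FPKM in the control libraries. Both members were called, with log2 changes of 3.98 and -2.20. In the BAF chromatin remodelling complex, Actl6b held 91.0% in ND1 and 2.06% in control cells against Actl6a, Dpf1 held 83.7% in ND1 and 1.71% in control cells against Dpf2, and Ss18l1 held 83.1% in ND1 and 6.71% in control cells against Ss18. Actl6a and Dpf2 were no longer called lower after scaling to equal sums, at -0.47 and -0.85, while the calls of Ss18l1 and Ss18 held there. In 2 RNA-binding pairs the broad member was called higher too. Elavl1 gave 21.6 against 9.91 FPKM in ND1 and control cells and Celf2 gave 77.8 against 25.6 FPKM, but their neuronal relatives took a larger share, 52.5% in ND1 and 5.01% in control cells for Elavl4 and 28.4% in ND1 and 3.50% in control cells for Celf4.

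The cytoskeletal pairs differed in how far they went. Tubb3 held 99.6% in ND1 and 19.997% in control cells of its pair with Tubb6, and Tuba1a held 99.4% in ND1 and 68.0% in control cells of its pair with Tuba1c. After scaling to equal sums Tubb6 and Tmsb4x were no longer called lower, at -0.73 and -0.61. Vim, the intermediate filament of many non-neuronal cells, gave 89.1, 76.4 and 77.4 FPKM in the ND1 libraries, against 537, 557 and 518 FPKM in the control libraries. Nefl, the light neurofilament, gave 43.2, 43.5 and 43.2 FPKM in the ND1 libraries, against 0.0519, 0 and 0.0167 FPKM in the control libraries. Vim therefore remained the more abundant of the pair in every ND1 library, with Nefl at 34.9% in ND1 and 0.00430% in control cells. At the nuclear lamina, Lmnb1 held 79.2% in ND1 and 3.44% in control cells against Lmna. Cortical neurons had only 38.2%, with Lmnb1 at 11.8 and Lmna at 19.0 FPKM, so the ND1 share lay beyond that of neurons. Among actin regulators, Tmsb10 held 40.9% in ND1 and 2.52% in control cells against Tmsb4x, Pfn2 held 39.9% in ND1 and 0.643% in control cells against Pfn1, Cyfip2 held 79.4% in ND1 and 26.9% in control cells against Cyfip1, and Arpc1a held 80.6% in ND1 and 13.02% in control cells against Arpc1b. Rac3 held 92.2% in ND1 and 3.21% in control cells against Rac2, the GTPase of phagocytes, and Marcksl1 held 91.0% in ND1 and 42.2% in control cells against Marcks. The motor subunit Kif5c held 82.3% in ND1 and 9.75% in control cells against Kif5b, and Dync1i1 held 37.4% in ND1 and 0.317% in control cells against Dync1i2, neither partner being called.

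In membrane traffic, Snap25, the SNARE of synaptic vesicle fusion, gave 71.5, 77.0 and 75.3 FPKM in the ND1 libraries, against 1.14, 0.989 and 1.43 FPKM in the control libraries. Snap23, the SNARE of other secretory cells, gave 6.49, 5.60 and 5.10 FPKM in the ND1 libraries, against 75.7, 70.7 and 72.5 FPKM in the control libraries. The share of Snap25 was 92.9% in ND1 and 1.60% in control cells. Vamp2 held 88.0% in ND1 and 3.29% in control cells against Vamp8. Ap3b2, of the neuronal AP-3 coat, held 80.1% in ND1 and 1.06% in control cells against Ap3b1. For the endocytic genes, Dnm1 held 60.9% in ND1 and 0.813% in control cells against Dnm2, and Amph 41.1% in ND1 and 2.09% in control cells against Bin1, which was not called. Of the proton pump, Atp6v0a1 held 81.2% in ND1 and 30.3% in control cells against Tcirg1, the subunit of osteoclasts and macrophages, and Atp6v1g2 held 13.3% in ND1 and 0.735% in control cells against Atp6v1g1.

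Pumps, transporters and signalling proteins followed. Atp1b1 held 74.0% in ND1 and 2.56% in control cells against Atp1b3, both beta subunits of the sodium pump. Slc12a5, the chloride exporter KCC2 of mature neurons, gave 4.62, 4.54 and 4.69 FPKM in the ND1 libraries, against 0.166, 0.221 and 0.222 FPKM in the control libraries. Slc12a2, the chloride importer NKCC1, gave 6.25, 6.57 and 6.45 FPKM in the ND1 libraries, against 7.05, 6.77 and 7.18 FPKM in the control libraries. The importer stayed the higher of the 2 in each ND1 library, with Slc12a5 at 41.8% in ND1 and 2.82% in control cells, whereas neurons had Slc12a5 at 11.2, 11.7 and 10.2 FPKM and Slc12a2 at 5.06, 4.14 and 3.97 FPKM. Gnao1 held 61.0% in ND1 and 0.844% in control cells against Gnai2, and Gng3 73.1% in ND1 and 0.517% in control cells against Gng5, subunits of heterotrimeric G proteins. Prkar1b held 44.3% in ND1 and 3.75% in control cells against Prkar1a, subunits of protein kinase A, and Uchl1 90.2% in ND1 and 39.2% in control cells against Uchl3, which was itself called higher. In glycolysis, Hk1 held 98.0% in ND1 and 42.0% in control cells against Hk2, Slc2a3 68.3% in ND1 and 16.2% in control cells against Slc2a1, and Eno2 28.9% in ND1 and 4.45% in control cells against Eno1. Pfkp was the exception, with 30.6% in ND1 and 56.4% in control cells against Pfkl, and neither gene was called.

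The myeloid lists begin with the regulators of the lineage. Of 26 myeloid transcription factors, 19 were called lower and 2 higher, with a median of -2.92. Irf7, an interferon regulatory factor, gave 33.8, 26.1 and 28.0 FPKM in the ND1 libraries, against 743, 743 and 732 FPKM in the control libraries. Irf5, which acts below Toll-like receptors, gave 8.79, 6.26 and 6.61 FPKM in the ND1 libraries, against 173, 179 and 170.5 FPKM in the control libraries. Irf8, needed to form microglia, gave 7.25, 5.21 and 5.94 FPKM in the ND1 libraries, against 136, 136 and 129 FPKM in the control libraries. Spi1, the master factor PU.1, gave 20.3, 14.7 and 16.4 FPKM in the ND1 libraries, against 307, 334 and 306 FPKM in the control libraries. All 4 genes were lower in each ND1 library, by 4.62, 4.42, 4.25 and 4.14 on the log2 scale, yet Spi1 remained above 10 FPKM. The 2 called higher were Mef2c, which neurons also use, at 128, 146 and 135 FPKM in the ND1 libraries, against 12.7, 13.3 and 13.2 FPKM in the control libraries, and the immediate early gene Nr4a1, at 6.45 against 1.65 FPKM on average in ND1 and control cells. Bhlhe40, Klf4, Etv5, Mef2a and Klf2 did not pass, with changes between -0.80 and 0.55.

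Of 21 tested markers of homeostatic microglia, 14 were called lower and 1 higher, with a median of -2.27. Fcrls, an Fc receptor-like gene of microglia, gave 9.68, 6.63 and 7.21 FPKM in the ND1 libraries, against 218, 219 and 236 FPKM in the control libraries. Selplg, a ligand of selectins, gave 3.57, 2.72 and 3.10 FPKM in the ND1 libraries, against 101.9, 104 and 104 FPKM in the control libraries. Csf1r, the receptor on which microglia depend, gave 18.8, 13.7 and 15.3 FPKM in the ND1 libraries, against 362, 360.3 and 362 FPKM in the control libraries. Trem2, a lipid receptor of microglia, gave 49.7, 34.98 and 43.6 FPKM in the ND1 libraries, against 865, 904 and 826 FPKM in the control libraries. These 4 stood at 3.50%, 3.03%, 4.41% and 4.94% of the control mean. P2ry12, the ADP receptor of ramified microglia, kept 12.3%, at 1.41, 1.30 and 1.28 FPKM in the ND1 libraries, against 11.9, 10.3 and 10.2 FPKM in the control libraries. Siglech, a sialic acid-binding lectin, was called higher, at 1.28, 1.14 and 1.21 FPKM in the ND1 libraries, against 0.0567, 0.0146 and 0 FPKM in the control libraries, though both levels are low and its change was 0.68 after quantile normalization. Rtn4rl1, Gpr34, Golm1, Sparc, Tgfbr1 and Slco2b1 did not pass, with log2 changes of -0.03, -0.17, -0.21, -0.43, -0.61 and -0.94. In control cells Gpr34 was at only 0.789, 0.265 and 0.675 FPKM.

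Genes of the disease-associated microglia state, a programme seen near plaques and dying cells, were called lower in 26 of 28 cases and higher in 0, with a median of -3.77. Apoe, the lipid carrier, gave 954, 642 and 768 FPKM in the ND1 libraries, against 23836, 24156 and 22854 FPKM in the control libraries. Lyz2, the macrophage lysozyme, gave 275, 202 and 235 FPKM in the ND1 libraries, against 10112, 9068 and 9527 FPKM in the control libraries. Apoe still averaged 788 ± 157 FPKM in ND1 cells (SD, n = 3). At day 2 it averaged 2087 FPKM in ND1 and 2943 FPKM in control libraries. Its control level was thus far higher at day 7 than at day 2, and its ND1 level was lower. Lgals3, the lectin galectin-3, fell by 4.21, and Ccl6, a chemokine, by 4.84. Ank and Itgax did not pass, at 0.39 and -0.03; the dendritic cell and activation marker Itgax was at 0.748, 0.630 and 0.638 FPKM in control libraries. Summed over the list, the level was 6276 to 8081 FPKM in ND1 libraries and 99123 to 105778 FPKM in control libraries.

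Complement and colony-stimulating factor genes left few exceptions. All 18 tested complement genes were called lower, with a median of -3.89. C1qa, C1qb and C1qc encode the chains of C1q, the starter of the classical pathway. C1qc gave 232, 165 and 189 FPKM in the ND1 libraries, against 5003, 5358 and 5075 FPKM in the control libraries. C1qb gave 231, 159 and 181 FPKM in the ND1 libraries, against 5735, 5599.7 and 5302 FPKM in the control libraries, and C3, the central component, gave 4.99, 3.80 and 4.21 FPKM in the ND1 libraries, against 104, 119 and 125 FPKM in the control libraries. The ND1 means of C1qa, C1qb and C1qc were 3.44%, 3.44% and 3.79% of the control means. Of 17 genes for growth factor and cytokine receptors of myeloid cells, 15 were called lower, with a median of -3.44. Tnfrsf1b and Il10ra, receptors of TNF and IL-10, fell by 4.35 and 4.27. Ifnar1, the interferon receptor chain, and Tgfbr1 did not pass; Ifnar1 gave 14.2, 14.1 and 14.6 FPKM in ND1 and 15.5, 15.3 and 15.6 FPKM in control libraries.

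Chemokine genes went in both directions. Of 24 tested, 15 were called lower and 3 higher, with a median of -2.93. Ccl4, Ccl3 and Ccl9, attractants of immune cells, gave ND1 means of 17.2, 17.9 and 16.3 FPKM, against control means of 527, 391.9 and 303 FPKM. Cxcl1, a neutrophil attractant, was called higher, at 9.23, 10.7 and 10.3 FPKM in the ND1 libraries, against 0.375, 1.08 and 1.09 FPKM in the control libraries. Cx3cl1, the neuronal ligand of the microglial receptor Cx3cr1, was called higher, at 9.65, 9.15 and 9.09 FPKM in the ND1 libraries, against 2.52, 3.45 and 3.25 FPKM in the control libraries. Its receptor Cx3cr1 was called lower, at 3.03, 3.18 and 3.03 FPKM in the ND1 libraries, against 12.4, 12.4 and 12.8 FPKM in the control libraries. The third was Cxcl12, at 1.05, a call that was lost without ND1 replicate 2 (0.99), without control replicate 1 (0.97) and after quantile normalization (0.52). Ccl25, Cxcl9, Cxcl2, Ccr1, Cxcl14 and Cxcl10 did not pass, with log2 changes between -0.84 and 0.36, and Ccl24 and Cxcl3 were listed at 0 in all ND1 libraries.

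Toll-like receptors and their signalling genes were called lower in 36 of 38 cases and higher in 0, with a median of -2.89. Ly86, a partner of Cd180, gave 33.0, 24.7 and 28.6 FPKM in the ND1 libraries, against 789, 648 and 727 FPKM in the control libraries. Unc93b1, which brings Toll-like receptors to endosomes, gave 24.2, 18.04 and 20.1 FPKM in the ND1 libraries, against 474, 469.7 and 467 FPKM in the control libraries. Cd14 and Cd180, receptors of the lipopolysaccharide pathway, fell by 4.09 and 4.06. Each ND1 library was under each control library in these genes. Il6, an inflammatory cytokine, and Traf6, a ubiquitin ligase shared by many pathways, did not pass, at 0.38 and -0.48; Il6 averaged 0.390 against 0.0682 FPKM in ND1 and control cells.

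Fc receptors and the tyrosine kinase pathway behind them were called lower in 25 of 26 cases, with a median of -4.08. Fcgr1, the high-affinity IgG receptor, gave 8.19, 5.92 and 7.39 FPKM in the ND1 libraries, against 266, 222 and 240.1 FPKM in the control libraries. Fcgr4 and Fcgr3, other IgG receptors, gave ND1 means of 18.2 and 24.6 FPKM against control means of 519 and 626 FPKM. Pik3ap1, a kinase adaptor, fell by 4.58. Fgr, a Src-family kinase, did not pass and was under 1 FPKM in both groups, at 0.132, 0.179 and 0.139 FPKM in ND1 and 0.327, 0.337 and 0.240 FPKM in control libraries. All 22 tested scavenger receptors and lectins were called lower, with a median of -3.79. After Cd5l the largest falls were those of Clec4a3, Clec4a1 and Siglec1, lectins of macrophages, by 5.13, 4.88 and 4.82. Clec4a genes lie in a family of close copies, and the tables do not show how shared reads were assigned.

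The oxidase by which phagocytes make superoxide, with the cytoskeletal genes of blood cells, was called lower in 18 of 20 cases, with a median of -4.00. Rac2, the GTPase that starts the oxidase, gave 15.2, 11.4 and 12.3 FPKM in the ND1 libraries, against 269, 273 and 268 FPKM in the control libraries. Fermt3, an integrin activator of blood cells, gave 9.12, 6.91 and 7.58 FPKM in the ND1 libraries, against 179.8, 194 and 191 FPKM in the control libraries. Dock2 and Lcp1, a Rac activator and an actin bundler, fell by 4.29 and 4.20. The actin regulators Evl and Coro1a did not pass, and Evl gave 159.7, 149.7 and 151 FPKM in the ND1 libraries, against 115, 126 and 127 FPKM in the control libraries.

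Antigen presentation differed between its 2 classes in level. For MHC class I and peptide loading, 18 of 20 genes were called lower, with a median of -3.88. H2-K1, a classical class I heavy chain, gave 122.5, 94.3 and 105 FPKM in the ND1 libraries, against 2449, 2464 and 2431 FPKM in the control libraries. Psmb9 and Psmb8, subunits of the immunoproteasome, fell by 4.37 and 4.26, and H2-T23 by 4.25. Class I genes are close copies of each other, so their single values are uncertain. Calr and Pdia3, chaperones of the endoplasmic reticulum, did not pass, at -0.05 and -0.54. For class II, 10 of 13 were called lower, with a median of -2.34. Control levels were low there: H2-DMb1, which helps load peptides, gave 0.624, 0.695 and 0.560 FPKM in the ND1 libraries, against 23.4, 22.3 and 18.8 FPKM in the control libraries, and Cd74, the invariant chain, gave 2.87, 1.43 and 2.02 FPKM in the ND1 libraries, against 29.6, 35.3 and 25.6 FPKM in the control libraries. Cd274 and Ifi30 fell by 3.37 and 3.10, and H2-Oa, H2-DMa and Cd40 did not pass.

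All 32 tested interferon-stimulated genes were called lower, with a median of -3.99. Sp100, a nuclear body protein, gave 6.69, 4.86 and 5.02 FPKM in the ND1 libraries, against 154, 145 and 147 FPKM in the control libraries. Zbp1, a sensor of nucleic acids, gave 12.2, 9.94 and 11.1 FPKM in the ND1 libraries, against 264, 242 and 258 FPKM in the control libraries. Ifit3, an antiviral effector, gave 22.3, 16.5 and 18.2 FPKM in the ND1 libraries, against 449.7, 379 and 419 FPKM in the control libraries. The change of the list's members ran from -4.53 for Sp100 to -2.80 for Gbp3, an interferon-induced GTPase. Bst2, the tethering protein tetherin, fell by 4.37. Isg15, the ubiquitin-like protein of the interferon response, averaged 21.4 ± 3.18 FPKM in ND1 libraries and 424 ± 37.9 FPKM in control libraries (SD, n = 3 each, chosen after its value was seen).

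All 41 tested lysosomal genes were called lower, with a median of -3.40. Ctsc, cathepsin C, gave 20.02, 15.9 and 17.6 FPKM in the ND1 libraries, against 409, 364 and 385 FPKM in the control libraries. Grn, the precursor of granulins, gave 89.5, 67.3 and 77.5 FPKM in the ND1 libraries, against 1614, 1629.8 and 1577 FPKM in the control libraries. Ctss, cathepsin S of antigen-presenting cells, gave 249, 194 and 219.5 FPKM in the ND1 libraries, against 4295, 3923 and 3929 FPKM in the control libraries. The smallest changes were those of Laptm4a (-1.12) and Mcoln1 (-1.28), chosen after their values were seen. Summed over the list, the level was 2914 to 3654 FPKM in ND1 libraries and 43138 to 45359 FPKM in control libraries. The vacuolar ATPase, which acidifies lysosomes and also fills synaptic vesicles, was mixed, with 11 of 20 subunits called lower and 3 higher, and 5 lower and 4 higher after scaling to equal sums. Tcirg1 gave 12.6, 10.02 and 10.9 FPKM in the ND1 libraries, against 144, 152 and 142 FPKM in the control libraries, and Atp6v0d2, another subunit of osteoclasts and macrophages, gave 11.03, 8.58 and 10.5 FPKM in the ND1 libraries, against 103.4, 96.0 and 90.7 FPKM in the control libraries. Called higher were Atp6v0e2, at 110.3, 106 and 111 FPKM in the ND1 libraries, against 8.18, 7.58 and 8.77 FPKM in the control libraries, and Atp6v1g2, at 31.6, 31.6 and 31.6 FPKM in the ND1 libraries, against 2.60, 2.41 and 2.77 FPKM in the control libraries. Atp6v0c was also called higher, but its ND1 libraries are listed at 442, 241 and 359 FPKM and its control libraries at 854, 0 and 0 FPKM, so the groups overlap and no change is given. The 6 subunits that did not pass had changes between -0.76 for Atp6v1g1 and 0.57 for Atp6v1h.

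Of 19 tested iron genes, 14 were called lower and 3 higher, with a median of -2.88. Those called lower included Slc11a1, the metal pump of phagosomes, by 4.16, Blvrb, which acts in haem breakdown, by 4.01, and Slc40a1, the iron exporter ferroportin, by 3.55. Ftl1, the ferritin light chain, gave 2887, 2515 and 2787 FPKM in the ND1 libraries, against 20651, 22444 and 21066 FPKM in the control libraries, a change of -2.97 that was -0.76 and not called after quantile normalization. Those called higher included Tfrc, the receptor that imports iron, at 36.4, 40.5 and 37.9 FPKM in the ND1 libraries, against 13.5, 13.3 and 14.2 FPKM in the control libraries, and Ireb2, an iron-sensing RNA-binding protein, at 1.47. Aco1 and Steap4 did not pass, at 0.06 and -0.998.

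Cell death genes were called lower in 22 of 38 cases and higher in 3. The inflammasome adaptor Pycard gave 3.10, 2.08 and 2.12 FPKM in the ND1 libraries, against 49.5, 43.5 and 44.9 FPKM in the control libraries. Gsdmd, the pore former of pyroptosis, gave 4.98, 4.07 and 4.26 FPKM in the ND1 libraries, against 72.8, 73.4 and 72.0 FPKM in the control libraries. Casp1 and Casp8 fell by 3.72 and 3.49. Among those called higher, Bok, a BCL2 family member, gave 30.7, 29.3 and 29.98 FPKM in the ND1 libraries, against 0.278, 0.131 and 0.515 FPKM in the control libraries. Hrk, a BH3-only protein of neurons, gave 4.50, 5.01 and 4.66 FPKM in the ND1 libraries, against 0.0722, 0.0933 and 0.152 FPKM in the control libraries. Control cells held little Bok or Hrk. The 13 members that did not pass included Bax and Bcl2, at -0.78 and -0.25.

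The 3 ND1 libraries differed in how much myeloid RNA they held. ND1 replicate 1 had the highest summed level of all 3 in 17 of 17 myeloid lists, and replicate 2 the lowest in 15. The highest sum exceeded the lowest by 1.02 to 1.402 times. The FPKM sum over all genes was also highest in replicate 1 (461085) and lowest in replicate 2 (447561), and the list sums were not scaled for it. In the 10 neuronal lists, replicate 1 was lowest in 7, with sums within 1.07 times of each other. Lists share some genes, so these counts are not independent. Whether replicate 1 held more myeloid cells was not tested.

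Cholesterol genes split between making and exporting the lipid. Of 24 tested genes of synthesis and its control, 22 were called higher and 1 lower, with a median of 2.78. Hmgcs1, which makes HMG-CoA, gave 476, 506 and 489.6 FPKM in the ND1 libraries, against 12.4, 13.4 and 14.1 FPKM in the control libraries. Fdps, the farnesyl diphosphate synthase, gave 543, 527 and 539 FPKM in the ND1 libraries, against 17.8, 15.9 and 19.9 FPKM in the control libraries. Sqle, the squalene epoxidase, gave 108, 115 and 111 FPKM in the ND1 libraries, against 2.41, 2.98 and 3.09 FPKM in the control libraries. Acat2, which condenses acetyl-CoA, rose by 5.66 (SE 0.09, limma adjusted p = 4.49e-16). The groups did not overlap in any of these. Ebp, a sterol isomerase, was the 1 called lower, at 8.44, 7.25 and 8.03 FPKM in the ND1 libraries, against 30.2, 23.8 and 24.5 FPKM in the control libraries. Of 24 genes of efflux, storage and the sterol-sensing receptor LXR, 21 were called lower and 2 higher, with a median of -3.24. Abca1, the exporter of cholesterol to apolipoprotein particles, gave 10.7, 8.06 and 8.87 FPKM in the ND1 libraries, against 119.6, 149 and 148 FPKM in the control libraries (chosen after its value was seen). Apoc1 and Lpl, a lipoprotein component and a lipase, fell by 4.76 and 3.95. Called higher were Scd2, a fatty acid desaturase of brain, at 285, 294 and 293 FPKM in the ND1 libraries, against 23.9, 25.7 and 25.7 FPKM in the control libraries, and Cyp46a1, the neuronal enzyme that hydroxylates cholesterol for export, at 11.4, 11.002 and 11.1 FPKM in the ND1 libraries, against 0.925, 1.34 and 1.34 FPKM in the control libraries. Ch25h did not pass, at -0.88. At day 2, 12 synthesis genes had been called higher and 3 export genes.

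**Figure D4:**
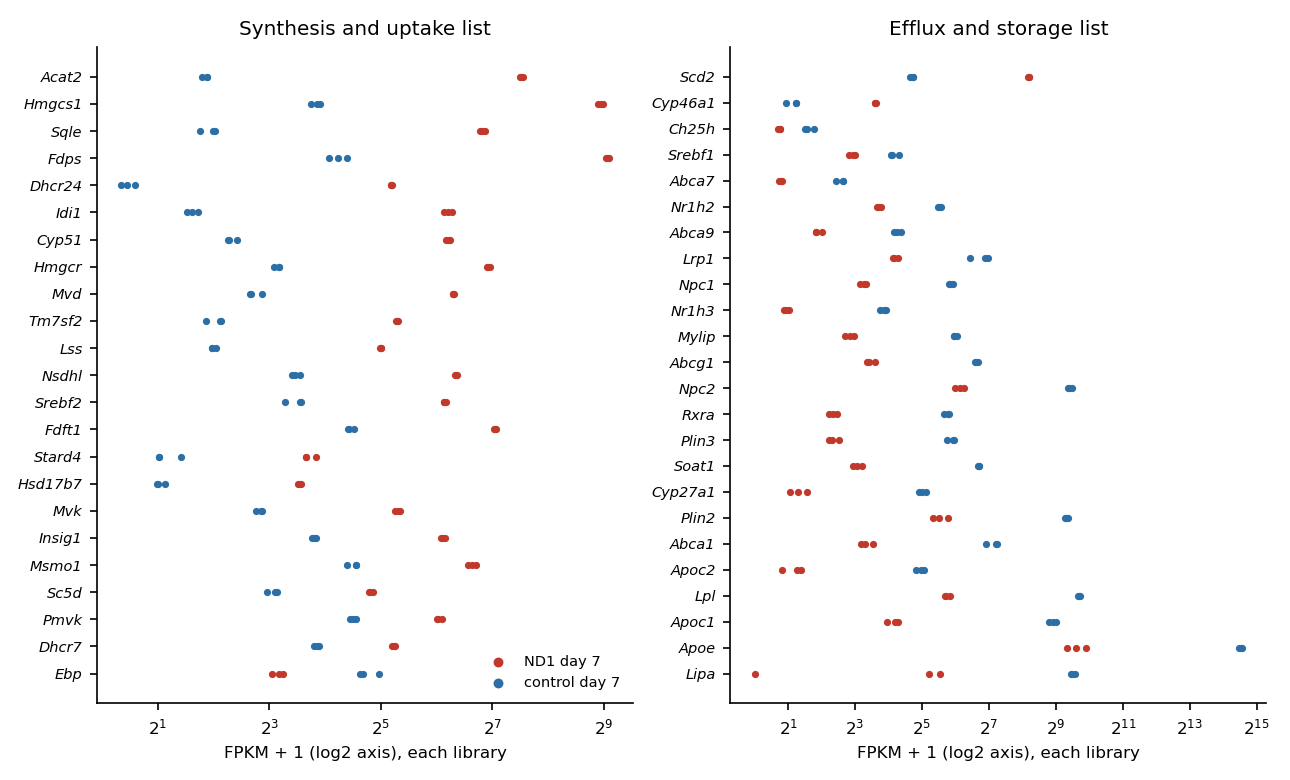
FPKM + 1 of each library (horizontal, log2 axis) for tested genes of the cholesterol synthesis list (left) and of the efflux and storage list (right), ND1 day 7 in red and control day 7 in blue, 3 points each, ordered by change. On the left the ND1 points lie right of the control points except for Ebp; on the right they lie left of them except for Scd2 and Cyp46a1, and 1 ND1 point of Lipa stands at 0 FPKM.

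Glycolysis genes moved in both directions, with 5 of 23 called higher and 7 lower, shares close to those of all genes. Their median of -0.38 was 0.27 after scaling to equal sums and 0.09 after quantile normalization, so the list has no stable direction. Within it, isoforms parted. Hk1, the hexokinase of brain, gave 67.3, 65.7 and 66.9 FPKM in the ND1 libraries, against 10.5, 12.2 and 11.1 FPKM in the control libraries. Hk3, the hexokinase of blood cells, gave 7.58, 5.63 and 6.54 FPKM in the ND1 libraries, against 103.4, 113 and 103.3 FPKM in the control libraries. Pfkm gave 58.7, 59.3 and 59.6 FPKM in the ND1 libraries, against 8.29, 8.23 and 8.84 FPKM in the control libraries, a called rise of 2.67. Gapdh was not called, at 385, 368 and 373 FPKM in the ND1 libraries, against 327, 324 and 307 FPKM in the control libraries. Of 74 nuclear genes of the respiratory chain, 3 were called higher and 2 lower, where 50.2% of all genes were called, and the median was 0.09. After scaling to equal sums, 26 were called higher, with a median of 0.74, so the level of the list relative to control depends on the scaling. Ndufa4, a respiratory chain protein, gave 620.1, 576 and 614 FPKM in the ND1 libraries, against 229, 175 and 203 FPKM in the control libraries, the largest rise of the list; Ndufs4 and Atp5g3 were the other 2 called higher. Ndufa2 and Cox7a2l were called lower, at -1.32 and -1.27, and neither call held after scaling to equal sums (-0.66 and -0.62).

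Ribosomal proteins had a median change of -0.78, with 23 of 78 called lower and 0 higher. After scaling to equal sums, 2 were called lower and 1 higher, with a median of -0.14. Beside Rps27, the members with the largest falls were Rps27l, Rpl23 and Rps29, by 1.70, 1.57 and 1.55. Constitutive proteasome subunits had 3 of 31 called higher and a median of 0.25: Psmd14, Psma7 and Psmd6, with changes of 1.14, 1.05 and 1.02. After scaling to equal sums 14 were called higher, and that of Psmd6 was lost without control replicate 2 (0.98). Both machines are used by all cells.

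Levels were taken as equal where the 95% interval of the log2 change lay inside -0.5 to 0.5, which held for 2645 genes (19.4%). The 10 most abundant of these were Cfl1, Rpl7a, Rps26, Eef2, Gnas, Rps7, Cox6b1, Rpl3, Rpsa and Rpl10a. Cfl1, the actin-severing protein cofilin, gave 1578, 1559 and 1538 FPKM in the ND1 libraries, against 1334, 1287 and 1255 FPKM in the control libraries, with an interval of 0.15 to 0.396 for its log2 change. Gnas, a stimulatory G protein subunit, gave 812, 764 and 782 FPKM in the ND1 libraries, against 906, 886 and 842 FPKM in the control libraries, and Eef2, an elongation factor, gave 865, 836 and 839.9 FPKM in the ND1 libraries, against 873, 973 and 909.7 FPKM in the control libraries. Equality here is on the deposited scale, since scaling to equal sums moved the median of all genes by more than this limit.

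Cell cycle genes were called lower in 14 of 39 cases and higher in 5, with a median of -0.71. The other 20 were not called, so the share called in either direction was near the 50.2% of all genes. Ccnd1, the cyclin of early division, gave 10.9, 9.28 and 8.52 FPKM in the ND1 libraries, against 90.1, 90.9 and 89.3 FPKM in the control libraries. Cdkn1a and Cdkn2a, cell cycle inhibitors, fell by 2.80 and 2.98, and Cdk2 by 2.21. Other inhibitors of the cycle were called higher: Cdkn1c, at 17.9, 18.05 and 17.0 FPKM in the ND1 libraries, against 2.10, 3.002 and 2.90 FPKM in the control libraries, and Cdkn1b and Cdkn2d, at 1.21 and 1.11. The kinase gene Cdk4 and the replication gene Mcm7 were also called higher, at 1.24 and 1.12. Mki67, a marker of dividing cells, was low in both groups and did not pass, at 1.21, 1.03 and 1.07 FPKM in the ND1 libraries, against 1.49, 1.90 and 1.68 FPKM in the control libraries. Of 24 genes of the unfolded protein and integrated stress response, 10 were called lower and 2 higher, with a median of -0.69. The other 12 were not called, again a share near that of all genes. After scaling to equal sums 7 were called lower and 5 higher, with a median of -0.05. Atf3 gave 11.6, 8.71 and 10.1 FPKM in the ND1 libraries, against 198, 193 and 197 FPKM in the control libraries. Ddit3, which encodes CHOP, gave 36.1, 28.6 and 32.4 FPKM in the ND1 libraries, against 251, 243 and 243 FPKM in the control libraries. Both stress-induced factors were lower in each ND1 library. Atf6 and Sesn2 fell by 2.21 and 1.96. Asns, the asparagine synthetase, was called higher, at 57.4, 56.7 and 57.5 FPKM in the ND1 libraries, against 15.9, 14.3 and 14.8 FPKM in the control libraries, and Chac1 had 1.35, which was 0.95 after quantile normalization.

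Markers of other cells of the cortex were read in the same libraries. Astrocyte markers summed to 40.3 to 41.2 FPKM in ND1 libraries and 77.7 to 81.3 FPKM in control libraries, with 3 of 9 tested called lower (Gfap, Aqp4 and Aldh1l1, at -2.23, -2.06 and -1.79) and 0 higher, and a median of 0.18 that was -0.36 after quantile normalization. Oligodendrocyte lineage markers summed to 13.4 to 14.4 FPKM in ND1 libraries and 73.6 to 74.9 FPKM in control libraries, with Cnp, Mag and Mbp called lower at -3.35, -2.03 and -1.53; Mog was called higher, at 1.62, 1.58 and 1.61 FPKM in ND1 libraries, and Mog and Mobp were at 0 in all control libraries. Endothelial markers summed to 2.15 to 2.35 FPKM in ND1 libraries and 10.02 to 11.4 FPKM in control libraries, with Kdr and Flt1 called lower at -2.08 and -1.04 and Cldn5 at 0 in all control libraries. Neutrophil, lymphocyte and mast cell markers summed to 6.99 to 7.10 FPKM in ND1 libraries and 0.532 to 1.29 FPKM in control libraries, and Cd3e, Cd3g and Nkg7 were at 0 in all 6; Kit, a receptor of mast cells and of some neurons, made up most of the ND1 sum, at 6.55, 6.92 and 6.80 FPKM in the ND1 libraries, against 0.163, 0.207 and 0.121 FPKM in the control libraries. Fibroblast and mural markers summed to 58.2 to 63.0 FPKM in ND1 libraries and 55.2 to 68.8 FPKM in control libraries. Of 9 tested, Rgs5, Pdgfrb, Col1a1 and Col3a1 were called higher, at 1.99, 1.42, 1.36 and 1.22, and Tagln lower at -1.08. Progenitor markers summed to 278 to 292 FPKM in ND1 libraries and 572 to 604 FPKM in control libraries, Vim included. Vim alone gave 76.4 to 89.1 FPKM in ND1 libraries and 518 to 557 FPKM in control libraries. It made up most of the control sum, so the lower ND1 sum rests on Vim. Of 12 tested progenitor markers, 4 were called higher and 1, Vim, lower, with a median of 0.88. Fabp7, a lipid carrier of radial glia and other glia, was called higher, at 169, 168 and 167 FPKM in the ND1 libraries, against 32.6, 23.2 and 29.5 FPKM in the control libraries, as were Sox1, Hes5 and Prom1 at ND1 means of 3.50, 1.61 and 2.54 FPKM, against control means of 0.357, 0.134 and 0.691 FPKM. The progenitor factor Sox2 did not pass, at 6.13, 6.32 and 6.49 FPKM in the ND1 libraries, against 2.73, 2.62 and 3.09 FPKM in the control libraries. The calls of Pdgfrb, Col3a1, Tagln, Hes5 and Prom1 were lost after quantile normalization, and those of Mbp, Flt1 and Tagln after scaling to equal sums. After scaling to equal sums the astrocyte list had 2 called higher and 3 lower. The fibroblast and mural list then had 6 higher and 0 lower, and the progenitor list 8 higher and 1 lower. With a pseudocount of 0.1 the progenitor list had 8 higher and 2 lower. After quantile normalization the fibroblast and mural list had 2 higher and 0 lower, and the progenitor list 2 higher and 2 lower. The part of such cells in the neuronal lists was not tested.

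The ND1 effect at day 7 was set beside that at day 2, where 1237 genes (9.09%) were called higher and 84 (0.618%) lower, 9.71% in either direction. Called higher at both days were 1176 genes, 33.6% of the day 7 calls and 95.1% of the day 2 calls. Called lower at both days were 70, which is 2.10% of the day 7 calls and 83.3% of the day 2 calls. The 2 contrasts share no library. The difference of the effects itself was called as higher at day 7 for 2790 genes (20.5%) and lower for 2826 (20.8%), 41.3% in either direction. Gad1, for example, had a log2 change of 1.17 at day 2 and 3.33 at day 7 (difference 2.16, limma adjusted p = 1.14e-11), and Slc12a5 had 0.73 and 2.22 (difference 1.49, limma adjusted p = 1.56e-10). On the myeloid side, Cybb, the catalytic subunit of the phagocyte oxidase, had -0.47 at day 2 and -4.02 at day 7, and Abca1 had -0.59 and -3.78. These 4 genes were chosen after their values were seen. Control levels also differed between the days, in either direction. Apoe averaged 2943 FPKM at day 2 and 23616 FPKM at day 7 in control libraries, and Fcgr1 493 and 243 FPKM. A larger effect at day 7 is therefore not always a change in ND1 cells alone. No gene was called lower at day 2 and higher at day 7, but 13 were called higher at day 2 and lower at day 7.

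Promoters of the called genes were compared as a description, since 10674 of the 13602 tested genes had a RefSeq promoter. CAGATG, an E-box form bound by Neurod1-type factors, was present on either strand in 11.5% of 2661 promoters of genes called higher, in 13.1% of 2633 promoters of genes called lower and in 11.4% of all tested. CAGCTG was present in 15.8, 17.6 and 15.02% of these sets, and CATATG in 1.99, 2.01 and 1.69%. All 3 are forms of CANNTG, which was in 62.1, 67.5 and 62.9%. Among all 27025 promoters of this length in the table, 17.2% held CAGATG, 16.1% CAGCTG, 3.91% CATATG and 72.1% CANNTG. Of the 3 forms, the first and the second were less frequent in promoters of genes called higher than in those of genes called lower, and the third, CATATG, was in 53 promoters of each set. With a filter of 5 FPKM the order of the third form turned, to 2.12% of promoters of genes called higher and 1.99% of those called lower. CpG content differed more: an observed-to-expected CpG ratio of at least 0.6 was found in 70.2% of promoters of genes called higher, 59.9% of those called lower and 78.0% of those not called.

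Promoter methylation was compared between the 1 ND1 and the 1 control bisulfite library, over 1000 bases before to 500 after the start, where both covered at least 5 CpG positions. With 1 library a group there is no replicate check, and the read depth per position is unknown. Promoters of 2639 genes called higher had median methylation of 6.21% in the ND1 library and 6.19% in the control library. For 2596 genes called lower the medians were 6.90% and 6.94%, and for 5331 genes not called 4.73% and 4.67%. Of the promoters of genes called higher, 84.2% lay under 20% in the ND1 library and 83.7% in the control library. For genes called higher, the lower and upper quartiles of the difference (ND1 minus control) were -0.620 and 0.542 percentage points. Only 4 of 10566 promoters differed by 20 points or more: Fam171a1, at 66.5% in ND1 and 45.3% in control, Klra2, at 58.2 and 37.5%, Rnaset2a, at 24.3 and 56.3%, and Sp100, at 58.7 and 82.0%. These were chosen after their values were seen and rest on 5 to 18 CpG positions each. Whether the bisulfite cells were taken at day 7 is not stated.

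**Figure D5:**
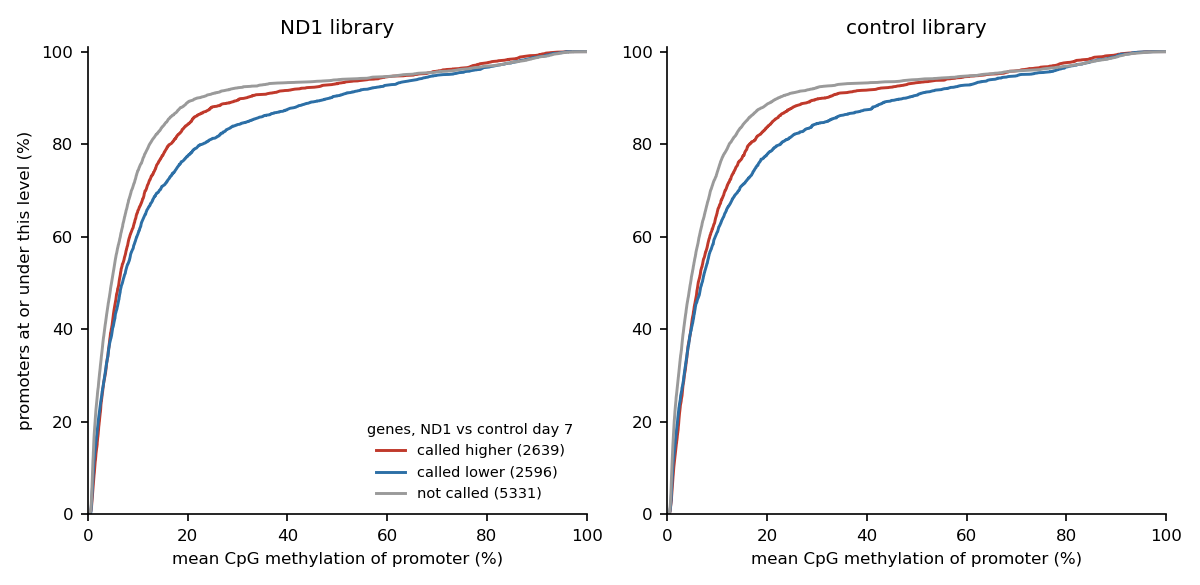
Cumulative share of promoters (vertical, %) at or under a given mean CpG methylation (horizontal, %) in the ND1 (left) and the control bisulfite library (right), for genes called higher, called lower and not called between ND1 and control at day 7. The 3 curves have nearly the same course in both libraries, and in each the genes called lower have the smallest share under 20%, 77.4% in ND1 and 77.7% in control; over a window of 250 bases on each side of the start it is the genes called higher that have a smaller share than those called lower.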

How the data were processed

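The authors deposited FPKM values per gene symbol for 15 RNA libraries and a methylated fraction per CpG position for 2 bisulfite libraries. Per the submitters' processing notes the tools were TopHat, Bowtie2, Cuffdiff and Cufflinks and the build was mm10; the sources used here give no versions. Per the labels, mRNA was isolated on oligo-dT beads. The deposited table lists 24293 symbols.

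The 13602 genes at 1 FPKM or more in at least 3 of the 15 libraries were tested with limma 3.58.1 in R 4.3.3 on log2(FPKM + 1), with an intensity trend and one mean per group, so that 5 groups shared one spread. Fold changes on this scale understate changes of low genes. P-values were Benjamini-Hochberg adjusted over all genes tested. The fit was tested on simulated data. FPKM carries no read count, so depth and counting error are unknown.

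The comparison, the 41 gene lists and the 38 pairs were chosen with earlier results of these data known, and no list received a test. Named genes are the 4 largest called changes without overlap per list and direction, members called against their list, members that did not pass, all pairs, the 10 most abundant genes per group, the 15 largest called changes per direction and the 10 most abundant of equal level. Others are said to be chosen after their values were seen. Some genes and pairs that the rule names are not reported here. Promoters are RefSeq sequences on GRCm38.p6, matched by symbol. The deposited fractions were averaged over the CpG positions of each promoter and given as percent.

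Alternatives were another pseudocount, filter, scaling, the 6 libraries alone, a replicate block, each library left out, and, chosen after seeing the data, removal of genes listed at 0 in a library beside at least 10 FPKM in another of its group.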

Additional observations from a re-analysis of the deposited data

Results flagged for a closer look

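For 12 genes given here the ND1 effect had opposite directions at the 2 days: each was called higher in ND1 than in control cells at day 2 and lower at day 7. All 12 passed the limma interaction of day and treatment, but the opposite calls that chose them fix that difference, so it adds no support. The differences, day 7 minus day 2 on the log2 scale, were -3.66 for Abca9, a lipid transporter, -3.46 for Arhgap18, a GTPase-activating protein, -2.98 for Cd33, a sialic acid-binding lectin, and -3.46 for Cyp4f18, a cytochrome P450. They were -4.20 for Gm5086, -2.66 for Hyal1, a hyaluronidase, -2.49 for Id3, an inhibitor of basic helix-loop-helix factors, -3.23 for Olfml3, a secreted protein of microglia, and -3.72 for Serpinb6b, a protease inhibitor. They were -2.74 for Sesn1, a sestrin, and -3.10 for Sh2d1b1, a signalling adaptor. Mir7035 had -10.41, but it was listed at 0, 0 and 0 FPKM in ND1 and 92.9, 144 and 90.0 FPKM in control libraries at day 7. At day 2 it averaged 63.0 FPKM (SD 25.8) in ND1 and 36.5 FPKM (SD 63.2) in control libraries. The control SD exceeded the control mean, so its call at day 2 rests on very uneven control values.

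Olfml3 shows the pattern in levels. At day 7 it stood at 3.91, 2.97 and 3.49 FPKM in the ND1 libraries, against 14.5, 13.6 and 16.4 FPKM in the control libraries. At day 2 it stood at 23.1, 24.5 and 25.8 FPKM in ND1 and 9.08, 8.36 and 8.40 FPKM in control libraries. Id3 stood at 7.20, 7.14 and 5.84 FPKM in the ND1 libraries, against 22.0, 19.6 and 17.8 FPKM in the control libraries at day 7, and at 11.5, 13.8 and 12.6 FPKM in ND1 and 5.76, 4.91 and 5.95 FPKM in control libraries at day 2. The 2 contrasts share no library. After scaling to equal sums the day 7 changes of Cd33 (-0.78), Id3 (-0.86) and Sesn1 (-0.94) no longer passed the threshold of 1.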

How the results depend on the processing

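Scaling every library to the same FPKM sum raised the genes called higher at day 7 to 5433 and those with a higher effect at day 7 than at day 2 to 4729. Without a filter on low values, 8513 genes counted as equal, since genes near 0 in both groups then entered. List medians moved by more than their spread between replicates in 39 of 41 lists after scaling to equal sums. They moved in 30 with a pseudocount of 0.1 and in 29 after quantile normalization. At a pseudocount of 0.1 the median of voltage-gated channels was 4.07 in place of 2.14. After scaling to equal sums, 19 of 22 scavenger and lectin genes and 39 of 41 lysosomal genes were called lower. Of 28 disease-associated microglia genes, 23 were then called lower and 1 higher. Leaving out 1 library at a time gave 3500 to 3514 genes called higher, 3306 to 3354 lower, 2489 to 2589 equal, 2777 to 2818 and 2815 to 2866 with a higher or lower effect at day 7 than at day 2, and 22 switched pairs each time. The replicate block gave 3497 higher and 3332 lower and changed no call of the 292 named genes. Same-numbered libraries did not deviate together (correlations of -0.001, 0.002 and -0.148), so the numbers were not taken as pairs. Without genes listed at 0 beside at least 10 FPKM, 3470 were called higher and 3318 lower. Over a window of 250 bases on each side of the start, promoters under 20% methylated were 90.6% in the ND1 and 90.2% in the control library for genes called higher, and 91.6% and 91.5% for genes called lower, so that the order of the 2 sets turned. With at least 10 CpG positions they were 80.4% and 80.7% for genes called lower. Of the 292 named genes, Tmsb4x (1.46) and Eef1a1 (1.19) reversed under quantile normalization, and 14 calls were lost under each of quantile normalization and scaling to equal sums. Lipa passed no longer without ND1 replicate 3 (-4.15, SE 1.92), where the shared spread still held a 0 in control replicate 2 of day 2. Single libraries decided calls near the threshold, among them those of Cxcl12, Psmd6, Flt1 without control replicate 2 (-0.99), Col3a1 without control replicate 1 (0.92) and Prom1 without control replicate 3 (0.94). The depth behind single FPKM values limits statements on genes near 0.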
